A study of Mus musculus with 14 samples.

Results

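The genes described here carry glucose into the cell, break it down to pyruvate and lactate, and pass lactate across the cell membrane. They are the glucose transporter Slc2a1, the hexokinases Hk1 and Hk2, the phosphofructokinase Pfkm and its regulator Pfkfb2, the aldolase Aldoa, the pyruvate kinase Pkm, the lactate dehydrogenases Ldha and Ldhb, and the lactate transporter Slc16a1. The members are these 10 genes by name, and all RefSeq records of each were summed, which gave 34 records among the 26307 genes of the tables. RNA was compared in 2 control and 2 shBCOR libraries of sorted retinal cells from wild-type CD1 mice. Eyes were electroporated in vivo on postnatal day 0 with 1 µg/µl of plasmid and collected on postnatal day 21. The shBCOR group received pSilencer-shBcor, a short hairpin vector against Bcor, and the control group received the empty vector pSilencer-CAG-Venus, so that the control carries no hairpin. Fluorescent cells of several sorts were pooled to 30000 to 70000 cells per library, and p-values therefore measure the spread between such pools. Every error of a log2 fold change below is a standard error, with n = 2 libraries in each group unless a library was left out. The labels name 1 hairpin construct and do not say how many eyes each pool held. BCOR is a transcriptional corepressor, and the study asked how retinal cells differ when it is lowered.

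The retina uses glucose quickly and turns much of it into lactate even when oxygen is plentiful, a habit called aerobic glycolysis. In photoreceptors glucose enters through GLUT1, the product of Slc2a1, and is trapped as glucose 6-phosphate by hexokinase 2. Phosphofructokinase commits the sugar to glycolysis under the control of the fructose 2,6-bisphosphate enzymes, and pyruvate kinase and lactate dehydrogenase complete the path to lactate. Lactate leaves through proton-coupled monocarboxylate transporters such as MCT1, the product of Slc16a1, which need the membrane chaperone basigin, and neighbouring glia and pigment epithelium can burn it.

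The promoters of Slc2a1, Hk2 and Slc16a1 are shown because these were the 3 members with the smallest p-values below. Each sequence is the 250 bases before the annotated start, 5′ to 3′ on the gene's strand, taken from RefSeq on GRCm38.p6. Capitals mark 3 motifs searched on both strands: TAATCC, the core site of the photoreceptor homeobox factors OTX2 and CRX, ACGTG, a core shared by the hypoxia response element and the CACGTG form of the E-box, and GGGCGG, the GC box. The Slc2a1 window lies at chr4:119108495-119108744 on the plus strand, the Hk2 window at chr6:82774455-82774704 on the minus strand, and the Slc16a1 window at chr3:104638414-104638663 on the plus strand.
Slc2a1: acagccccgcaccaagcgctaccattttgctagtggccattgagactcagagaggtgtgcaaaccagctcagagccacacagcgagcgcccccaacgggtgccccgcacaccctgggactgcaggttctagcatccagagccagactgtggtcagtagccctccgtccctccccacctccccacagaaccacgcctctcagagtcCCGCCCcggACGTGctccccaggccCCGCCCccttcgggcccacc
Hk2: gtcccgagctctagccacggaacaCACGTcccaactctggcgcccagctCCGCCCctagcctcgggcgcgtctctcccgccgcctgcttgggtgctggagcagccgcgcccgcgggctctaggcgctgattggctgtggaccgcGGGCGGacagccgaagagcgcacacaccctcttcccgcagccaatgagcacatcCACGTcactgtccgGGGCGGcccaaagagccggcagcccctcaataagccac
Slc16a1: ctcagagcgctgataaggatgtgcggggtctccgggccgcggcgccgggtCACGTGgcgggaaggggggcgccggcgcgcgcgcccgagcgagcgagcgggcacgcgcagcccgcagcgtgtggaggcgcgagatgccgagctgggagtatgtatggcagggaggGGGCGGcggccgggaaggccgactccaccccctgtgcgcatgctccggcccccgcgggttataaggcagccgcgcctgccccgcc

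All 3 windows held ACGTG and GGGCGG on one strand or the other. Windows of other members held 1 or both of these motifs. ACGTG was found in 11 and GGGCGG in 8 of the 20 windows of the 10 members, those of Ldha, Aldoa and Pkm included. The 2 windows of Pkm held 1 motif each, and 2 windows of Aldoa overlap and share their ACGTG site. ACGTG was present in 16.6% of the 32851 windows of that length in the RefSeq table and GGGCGG in 32.7%. The single CACGTG of Slc16a1 holds ACGTG on both strands, in overlap. TAATCC was found in none of these 3 windows, and it was present in 6.25% of all windows. Of the 20 member windows 2 held TAATCC, 1 each of Ldha and Pfkm.

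The libraries held 3173927 to 5107174 counts, the shBCOR libraries being the smaller ones, and 7881 to 9283 genes had a count. Bcor itself had 20 and 8 counts in the controls against 0 and 13 with shBCOR, so the target did not check the labels (log2 fold change −0.63 with an SE of 2.40, adjusted p = 0.991, edgeR). Genes with several records held few of the counts: 93.6% of all counts lay in the 17495 genes with 1 record and 6.39% in the 8812 genes with several. How reads that fall in several records were treated was not stated in the sources used here. Genes with 1 record had enough counts to test in 35.9% of cases, genes with 2 records in 18.5% and genes with 5 or more in 14.6%. Where a gene has several records, its count is therefore no measure of how much of its RNA was present. This holds for the members and for the genes of the lists below. Levels of different members were not compared, since no transcript lengths were used here.

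**Figure D1:**
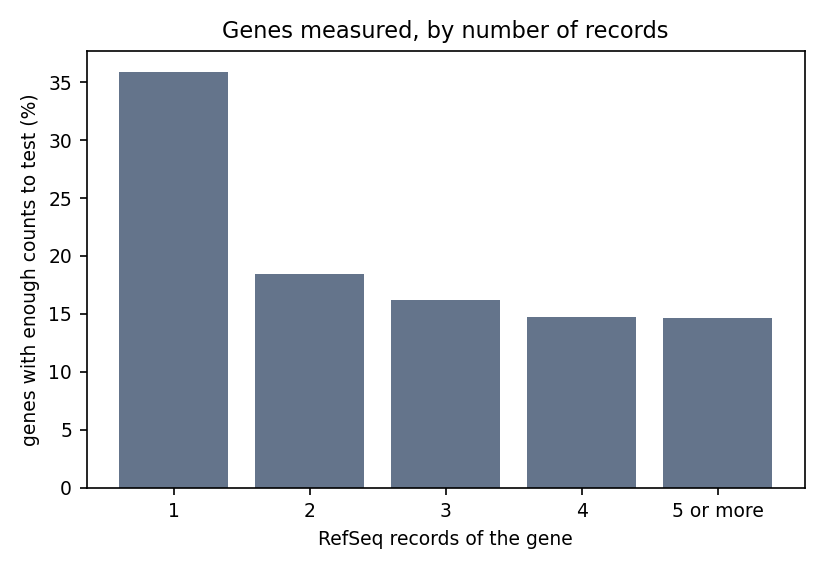
Share of genes with enough counts to test (y axis, percent) by the number of RefSeq records of the gene (x axis). The share was 35.9% for genes with 1 record and 14.6% for genes with 5 or more.

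This bears on the set unevenly. Slc2a1, Hk2 and Slc16a1 have 1 record each and held over 1000 counts in every library, as did Pfkfb2, whose counts all lay in 1 of its 5 records, NM_008825. Hk1, Aldoa and Ldha, with 2, 3 and 3 records, held fewer than 200 counts in every library. Pkm with 11 records and Ldhb with 3 were listed at 0 in all 4 libraries, and Pfkm with 4 records had 2 counts in control replicate 2 and 0 elsewhere. A count of 0 allows up to 3 counts, or 0.587 to 0.945 CPM (counts per 1e6 of the library) depending on the library, and this limits only reads given to a single record, not the RNA of these enzymes. In all, 10 of the 34 records had a count, and 7 of the 10 genes could be tested.

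None of the 7 genes tested passed an adjusted p of 0.05 (edgeR quasi-likelihood test, Benjamini-Hochberg adjustment over 7775 genes), where 0.09% of all genes tested passed, 3 higher (0.0386%) and 4 lower (0.0514%). At an unadjusted p under 0.05 there were 4 members, all higher in shBCOR cells, namely Slc16a1, Hk2, Slc2a1 and Pfkfb2, where 4.19% of all genes were higher and 5.11% lower at this level. These are the 4 members with over 1000 counts per library. For these 4, both shBCOR libraries lay above both controls, which was so for 18.6% of all genes tested, and 23.2% had both below. The median log2 fold change over the 7 was 0.54, beside −0.01 over all genes tested. It is the value of Aldoa, one of the members with few counts, and it was 0.30 without shBCOR replicate 1, 0.34 with library totals and 0.16 scaled to rod genes.

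Genes with many counts lay mostly higher in shBCOR cells, and the 4 members belong to them. Among the 631 genes with a mean of at least 1000 counts, a minimum chosen after seeing the data, 51.2% had both shBCOR libraries above both controls and 27.1% were higher at an unadjusted p under 0.05. Their median log2 fold change was 0.18. The order of the libraries in the 4 members was thus the common one among abundant genes. In size, 25 of the 631 (3.96%) had a log2 fold change at least as large as that of Slc2a1, and 144 (22.8%) one at least as large as that of Pfkfb2.

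Slc2a1 (record NM_011400) encodes GLUT1, the glucose transporter of photoreceptors, glia and the blood-retina barrier. Its counts were 1510 and 1294 in the controls against 1227 and 1431 with shBCOR, and scaled by the TMM method of edgeR these were 279 and 245 CPM against 419 and 364. The groups did not overlap, and shBCOR replicate 1 was highest. The log2 fold change was 0.58 ± 0.15, or 1.5-fold, with an adjusted p of 0.262 in edgeR. By p-value Slc2a1 stood at rank 179 of 7775. Its log2 fold change was 0.67 without shBCOR replicate 2 and 0.48 without shBCOR replicate 1. Without control replicate 1 or 2 it was 0.67 and 0.49. For this and the other members no p-value is given where 1 library was left in a group. Such a library shows no spread of its group.

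Hk2 (NM_013820) encodes hexokinase 2, the isoform of photoreceptors, which binds the outer mitochondrial membrane. Its raw counts were nearly equal, at 9048 and 9047 in the controls against 8631 and 8712 with shBCOR, which were the shallower ones. On the TMM scale the controls had 1670 and 1710 CPM and the shBCOR libraries 2950 and 2214. The controls lay close together, and the shBCOR libraries lay apart from each other but above both. The log2 fold change was 0.61 ± 0.14, or 1.53-fold, with an adjusted p of 0.184 in edgeR and rank 109. Without shBCOR replicate 1 it was 0.39, and without shBCOR replicate 2 it was 0.79. The size of the Hk2 value thus depended on which shBCOR library was kept. Without control replicate 1 or 2 the log2 fold change was 0.59 and 0.63.

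The other hexokinase, Hk1, the isoform of most neurons and of the inner retina, had 164 and 80 counts in the controls against 48 and 81 with shBCOR. Its 2 records shared them, NM_001146100 with 79 and 35 against 12 and 48, and NM_010438 with 85 and 45 against 36 and 33. Scaled, Hk1 had 30.3 and 15.1 CPM in the controls against 16.4 and 20.6 with shBCOR. The groups overlapped, and the log2 fold change was −0.29 ± 0.53 (adjusted p = 0.969, edgeR). It turned to 0.29 without control replicate 1.

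Pfkfb2 encodes a 6-phosphofructo-2-kinase/fructose-2,6-bisphosphatase, whose product fructose 2,6-bisphosphate activates phosphofructokinase. NM_008825 held 3510 and 2923 counts in the controls against 2364 and 2913 with shBCOR, and its other 4 records held 0. On the TMM scale these were 648 and 552 CPM against 808 and 740, so that the groups did not overlap. The log2 fold change was 0.37 ± 0.13, or 1.29-fold, the smallest of the 4, with an adjusted p of 0.428 in edgeR and rank 448. Without shBCOR replicate 2 it was 0.42, and without shBCOR replicate 1 it was 0.30. It was 0.48 and 0.25 without control replicate 1 or 2. Pfkm, the muscle-type phosphofructokinase on which this regulator acts, could not be tested.

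Aldoa, the aldolase that splits fructose 1,6-bisphosphate, had 74 and 106 counts in the controls against 117 and 36 with shBCOR. In CPM on the TMM scale this was 13.7 and 20.03 against 39.99 and 9.15, so the shBCOR libraries enclosed the controls. The log2 fold change was 0.54 ± 0.71 (adjusted p = 0.926, edgeR), and it turned to −0.88 without shBCOR replicate 1. Most of the counts lay in NM_001177307, and NM_007438 had none.

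Ldha, which makes lactate from pyruvate and favours that direction, had 106 and 5 counts in the controls against 19 and 31 with shBCOR, all in NM_001136069. The 2 controls differed from each other far more than the groups did, at 19.6 and 0.945 CPM against 6.49 and 7.88. The log2 fold change was −0.51 ± 1.28 (adjusted p = 0.982, edgeR), and it turned to 2.88 without control replicate 1. Its partner Ldhb, the subunit of tissues that take lactate up, and Pkm, the pyruvate kinase whose M1 and M2 forms arise by splicing, were listed at 0, so the balance of the subunits and of the splice forms was not measured.

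Slc16a1 (NM_009196) encodes MCT1, which carries lactate and pyruvate together with a proton. It had 4057 and 4288 counts in the controls against 3314 and 4918 with shBCOR, or 749 and 810 CPM against 1133 and 1250 on the TMM scale. The groups did not overlap, and here shBCOR replicate 2 was highest, unlike in Slc2a1, Hk2 and Pfkfb2. The log2 fold change was 0.61 ± 0.11, or 1.53-fold, with an adjusted p of 0.112 in edgeR and rank 56, the lowest p-value of the set. Leaving out single libraries gave 0.53 to 0.68, and the value passed without shBCOR replicate 1 (0.68, adjusted p = 2.78e-06) and without shBCOR replicate 2 (0.53, adjusted p = 0.000816), but with neither control left out. Without shBCOR replicate 1, 2.38% of all genes were called higher, and without shBCOR replicate 2, 1.92%, where the members so called were 2 and 4.

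**Figure D2:**
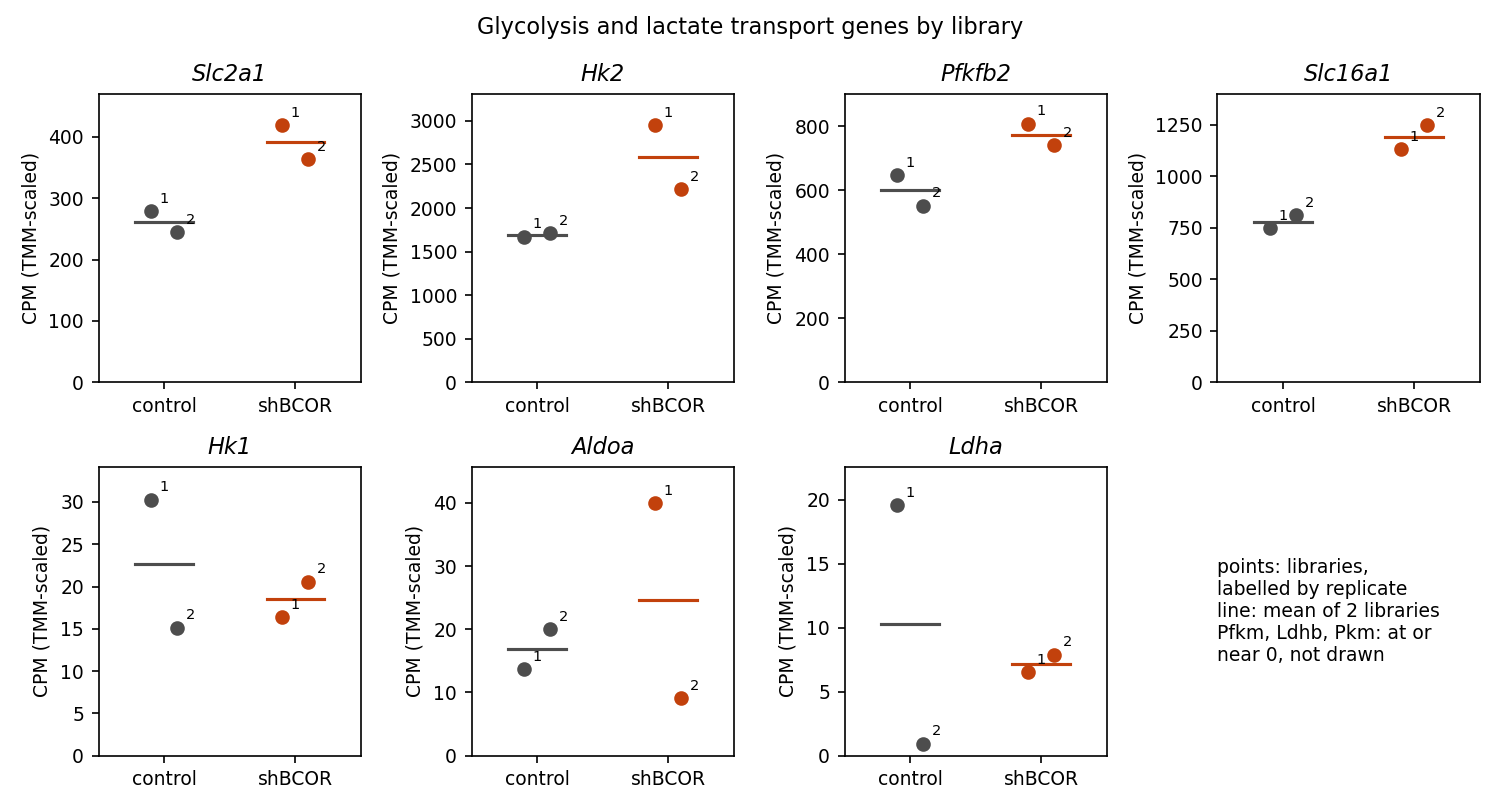
Level of the 7 testable genes in each library (y axis, TMM-scaled CPM from 0; points, libraries with their replicate number; line, mean of 2). Slc2a1, Hk2, Pfkfb2 and Slc16a1 did not overlap between groups, while Hk1, Aldoa and Ldha did.

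DESeq2, applied to the same counts, called all 4, where 2.25% of the 8415 genes it gave an adjusted p were called higher. Its log2 fold changes were 0.62 for Slc16a1 (adjusted p = 4.94e-07), 0.61 for Hk2 (1.58e-05), 0.58 for Slc2a1 (0.00366) and 0.37 for Pfkfb2 (0.0473). The sizes thus hardly differed between the tools, and the calls did. Without a filter on low counts edgeR called Hk2 and Slc16a1 (adjusted p = 5.06e-05 and 0.00106), where 0.702% of all genes were called higher. For DESeq2 and for this fit, the share called higher among genes with many counts was not computed. Those genes lay mostly higher, as given above.

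The scale on which libraries are compared moved the 4 values, and also the split of all calls, from 3 of 7 higher to 3 of 29 with library totals alone and 0 of 42 scaled to rod genes. With library totals alone the median of all genes shifted to −0.19, and the log2 fold changes were 0.44 for Slc16a1, 0.43 for Hk2, 0.41 for Slc2a1 and 0.19 for Pfkfb2. Against the summed counts of 29 rod genes the median of all genes shifted to −0.33, and the 4 values were 0.30, 0.28, 0.26 and 0.04.

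**Figure D3:**
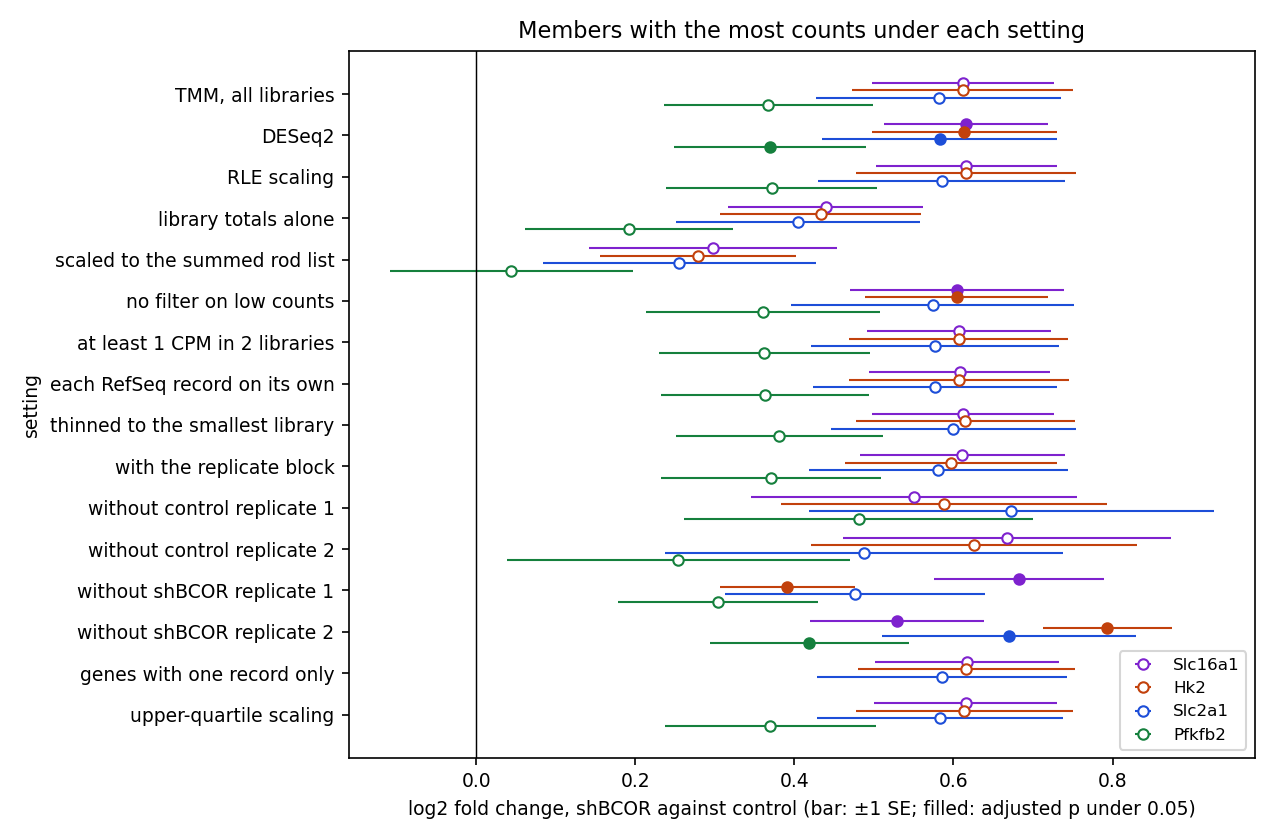
Log2 fold change of Slc16a1, Hk2, Slc2a1 and Pfkfb2 (x axis; bar, 1 SE) under each setting (y axis); filled points have an adjusted p under 0.05. All points lie above 0, and those scaled to the summed rod list lie lowest, at 0.04 to 0.30. Where a library was left out, bars and fills hold no spread of the group left with 1 library.

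Ratios within a library need no scale. Per 1000 counts of the rod list, Hk2 had 6.80 and 6.94 in the controls against 8.95 and 7.71 with shBCOR, and Slc16a1 had 3.05 and 3.29 against 3.44 and 4.35. For Slc2a1 these were 1.14 and 0.992 against 1.27 and 1.27, so these 3 genes kept both shBCOR libraries above both controls. The share of all genes that do so per count of the rod list was not computed. Pfkfb2, with 2.64 and 2.24 against 2.45 and 2.58, overlapped. Of the 6 pairs of these 4 members, 5 gave ratios that overlapped between the groups. Per 100 counts of Hk2, Slc16a1 had 44.8 and 47.4 in the controls against 38.4 and 56.5 with shBCOR, and Slc2a1 had 16.7 and 14.3 against 14.2 and 16.4. The pair that separated the groups was Pfkfb2 per 100 counts of Slc2a1, with 232.5 and 225.9 in the controls against 192.7 and 203.6 with shBCOR.

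Markers of the cell types that the sort could hold moved with the groups. P0 electroporation mainly reaches cells that become rods, bipolar cells, amacrine cells and Müller glia. The summed rod list made up 26.1 and 26.2% of all control counts against 30.4 and 27.6% with shBCOR. On the TMM scale the shBCOR libraries lay at 1.34 and 1.17 times the control mean for rod genes, and the 10 members summed lay at 1.59 and 1.36 times. Hk2, Slc16a1, Pfkfb2 and Slc2a1 held 98.2 to 99.2% of that sum in each library. Of the 26 rod genes tested, 20 had both shBCOR libraries above both controls. This was so for 18.6% of all genes and 51.2% of the 631 genes with many counts. At an unadjusted p under 0.05, 15 rod genes were higher (edgeR), beside 4.19% of all genes and 27.1% of those 631. At the adjusted threshold 1 rose (Rp1), beside 0.0386% of all genes (edgeR). DESeq2 called 14 higher, beside 2.25% of all genes. Nrl and Gnb1, with several records each, were listed at 0 in every library, the controls included. The summed cone list lay at 1.32 and 1.09 times. Kcnv2, which rods also express, held 1771 and 1736 of the 2972 and 2840 CPM of that list in the controls. Of the 10 cone genes tested, 1 had both shBCOR libraries above and 2 both below.

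Genes of the inner retina lay mostly on the other side. DESeq2 called 2 bipolar, 5 amacrine, 4 ganglion and horizontal, and 3 Müller glial genes lower, beside 204 of all 8415 genes. Both shBCOR libraries lay below both controls in 23.2% of all genes tested (edgeR fit). The summed list was at 0.521 and 0.812 times the control mean for bipolar cells, with 12 of 16 genes tested below both controls. For amacrine cells it was 0.423 and 0.443 times, with 7 of 9 below. For ganglion and horizontal cells it was 0.388 and 0.208 times, with 8 of 10 below and 1 that fell, Nefm. For Müller glia it was 0.731 and 0.891 times (6 of 14 below, 1 above). Some genes of these lists had no count in any library, the controls included. Among them were Pcp2, Gng13 and Lrrtm1 (bipolar), Tfap2a, Pax6, Calb2 and Dab1 (amacrine), and Rbpms, Slc17a6 and Septin4 (ganglion and horizontal). Each of these named genes has several records, so they show no difference between the groups. Glul held 3835 and 3727 of the 5892 and 5683 CPM of the Müller list in the controls. With shBCOR it held 2386 and 3065 of 4230 and 5154 CPM. The Müller list was mixed, with 9 negative and 5 positive log2 fold changes among the 14 genes tested. In bulk samples a change in the share of a cell type and a change in RNA per cell cannot be told apart, and the part of these shifts in the values of Slc2a1, Hk2, Pfkfb2 and Slc16a1 was not tested beyond the ratios to rod genes.

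Markers of further cells that can carry GLUT1 or MCT1 were summed as well. Retinal pigment epithelium, rich in both, gave 2.95 and 2.65 CPM in the controls against 0 and 19.6 with shBCOR, summed over 9 genes of which Best1, Rgr, Mlana and Tyr were at 0. Vascular and pericyte genes summed to 439 to 447 CPM in the controls against 378 and 433 with shBCOR, nearly all in Kdr and Flt1, with 8 of 11 genes at 0, Cldn5, Pecam1 and Cdh5 among them. Microglial genes summed to 57.2 and 67.1 CPM in the controls against 5.81 and 37.4 with shBCOR, with 5 of 11 at 0, Aif1 and P2ry12 among them. Genes given here as at 0 had no count in any library, the controls included. The part of these cells in the member values was not tested.

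**Figure D4:**
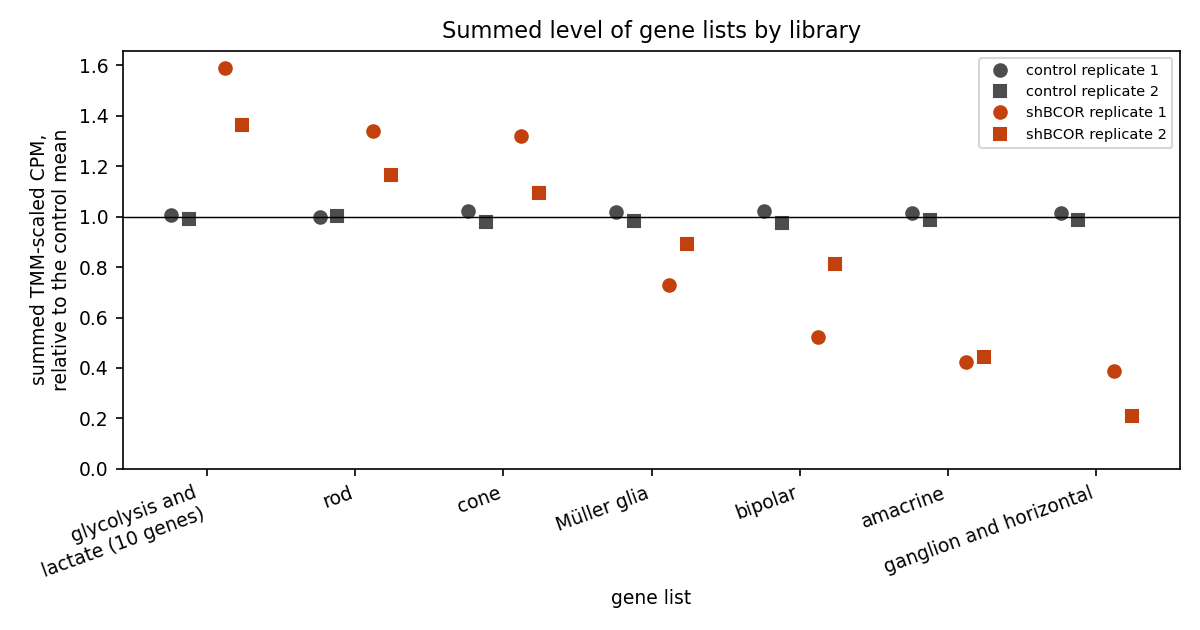
Summed TMM-scaled CPM of each gene list (x axis) in each library relative to the mean of the 2 controls (y axis). The 10 glycolysis and lactate genes, 4 of which hold nearly the whole sum, lie at 1.59 and 1.36 in shBCOR, rod genes at 1.34 and 1.17, and amacrine genes at 0.423 and 0.443.

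Paralogues of the members gave little that could be tested. Of 22 listed, 5 were tested and none passed, nor was any at an unadjusted p under 0.05 (edgeR) or called by DESeq2. Slc2a3, the neuronal glucose transporter GLUT3, had 35.6 and 30.1 CPM in the controls against 16.4 and 20.6 with shBCOR, a log2 fold change of −0.82 with an SE of 0.43 (adjusted p = 0.604, edgeR). Slc2a13, a myo-inositol transporter, had −1.12 ± 0.79, and Pfkp, the platelet-type phosphofructokinase, −0.84 ± 0.65 (adjusted p = 0.750 and 0.783, edgeR). In each, both shBCOR libraries lay below both controls, as in 23.2% of all genes. But shBCOR replicate 1 lay close under control replicate 1, at 27.3 against 29.2 CPM for Slc2a13 and 18.5 against 19.0 for Pfkp. Hkdc1, a hexokinase-like gene, had 0.46 and overlapped. The lactate transporters Slc16a3 and Slc16a7, with 3 records each, were listed at 0 in all libraries, which does not measure their RNA. Slc16a8, that of the pigment epithelium, had 4 counts in control replicate 2 alone.

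The enzymes between the members were likewise below the threshold: of 18 listed, 10 were tested, 0 passed in either direction (1 lower at an unadjusted p under 0.05 in edgeR, none with DESeq2), and the median log2 fold change was 0.25. Gpi1, which turns glucose 6-phosphate into fructose 6-phosphate, had 519 and 503 CPM in the controls against 388 and 595 with shBCOR (−0.06 ± 0.20). Tpi1, which interconverts the 3-carbon sugars, had 510 and 553 against 535 and 438 (−0.13 ± 0.15). Both have 1 record and over 1000 counts per library like Hk2, and in both the groups overlapped. Per 100 counts of Hk2, Tpi1 had 30.5 and 32.3 in the controls against 18.1 and 19.8 with shBCOR, a ratio picked out after its values were seen. The difference between Hk2 and Tpi1 in response was not tested.

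Of the remaining enzymes, Pgm1 and Tigar, a fructose bisphosphatase that opposes Pfkfb2, had 0.34 and 0.42 (adjusted p = 0.640 and 0.642, edgeR), with both shBCOR libraries above both controls. Galk1, the kinase of galactose, had −1.47 ± 0.52 (adjusted p = 0.419, edgeR). Pgk1 had 0.48 ± 0.49 and overlapped, and Gapdh, with 2 records, had 1 count in all.

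**Figure D5:**
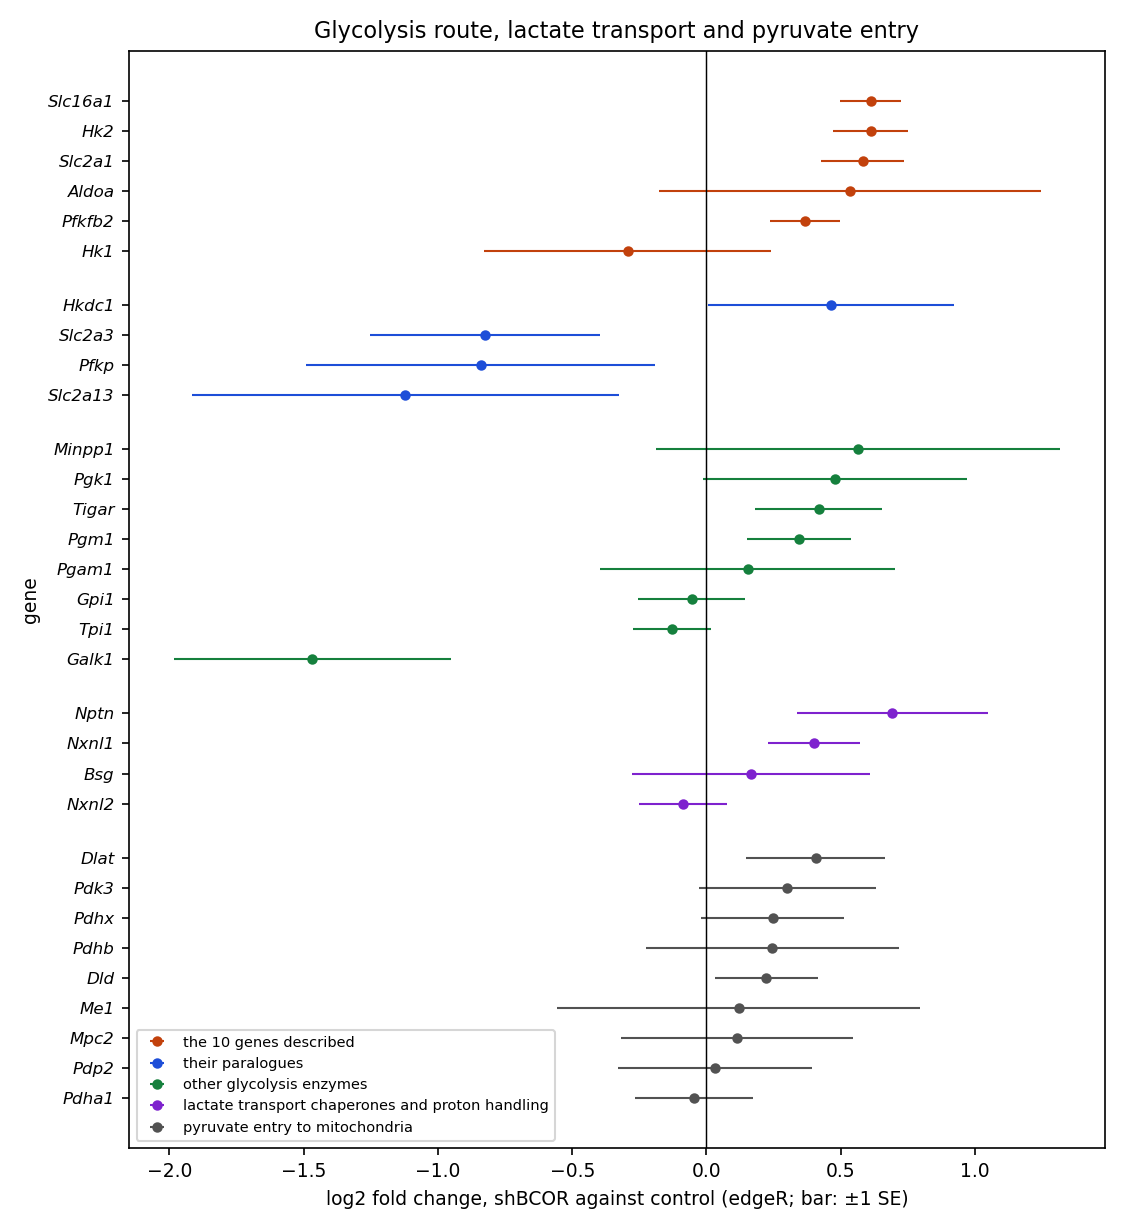
Log2 fold change (x axis; bar, 1 SE) of each gene tested (y axis) of the 10 described, their paralogues, the other enzymes, lactate transport partners and pyruvate entry, drawn where the SE was under 1. Slc16a1, Hk2 and Slc2a1 lie at 0.58 to 0.61, and Gpi1 and Tpi1 at −0.06 and −0.13.

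Partners of lactate transport were mixed, with 6 of 11 tested and none passing (1 higher and 1 lower at an unadjusted p under 0.05 in edgeR, none with DESeq2). Bsg, the basigin that brings MCT1 to the membrane and anchors the rod-derived cone viability factor, had 87.8 and 55.2 CPM in the controls against 115 and 46.5 with shBCOR and overlapped (0.16 ± 0.44). Nptn, the related neuroplastin, had 27.9 and 27.8 against 44.4 and 45.5 (0.69 ± 0.35, adjusted p = 0.597, edgeR). Nxnl1, which encodes the viability factor that acts through basigin and GLUT1, had 440 and 606 against 731 and 650 (0.40 ± 0.17, adjusted p = 0.537, edgeR). Emb, the embigin that serves MCT2, had 29 and 35 counts in the controls but none with shBCOR, which is at least 13.7-fold lower against a floor of 3 counts over the group (adjusted p = 0.472, edgeR).

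Pyruvate entry into mitochondria showed no gene past the threshold among 11 tested of 17, nor at an unadjusted p under 0.05 (edgeR) or with DESeq2, with a median log2 fold change of 0.22. Dlat, the acetyltransferase of the pyruvate dehydrogenase complex, had 0.41 ± 0.26, and Pdk3, a kinase that switches the complex off, had 0.30 ± 0.33, both with the shBCOR libraries above the controls. Dld and Pdhx, further subunits, had 0.22 and 0.25 and overlapped.

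The genes whose 4 libraries lay most like each member were found by the Euclidean distance of centred log2 CPM over the 4 libraries, among 2872 genes with at least 100 counts in each library. For Slc16a1 these were Lrit1, Znrf2 and Camk2d (distance 0.055 to 0.0733), for Hk2 Chchd10, Hs6st1 and Prob1 (0.058 to 0.0641), and for Slc2a1 Zscan29, Bud13 and Anapc4 (0.0272 to 0.0614). Over 4 libraries such likeness is common, and 88, 42 and 51 genes lay within a distance of 0.2 of Slc16a1, Hk2 and Slc2a1.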

How the data were processed

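The authors deposited 4 tables of counts, with 45895 RefSeq records each. Tools named without role or version, per the submitters' processing notes, are HTSeq, TopHat, Trimmomatic and DESeq2, and the builds named are mm9 and mm10. The treatment of strand, and of reads in several records, is not stated in those sources. The CUT&RUN peak lists were not used here. Records were matched to genes through a RefSeq table of GRCm38.p6 (99.7% matched) and summed per gene. The counts were fitted over all genes with edgeR 4.0.16 in R 4.3.3: TMM scaling, filterByExpr, a robust quasi-likelihood test between the 2 groups, adjusted after Benjamini and Hochberg, with a threshold of 0.05. SE is the log2 fold change over the square root of F. DESeq2 1.42.0, other scalings and filters, single records, thinning and leaving out libraries were alternatives. The fit was tested on simulated data. No set test was run. The planned level per length was not computed, since no transcript lengths were used here. Samples were grouped by title, although the file of shBCOR replicate 2 is numbered otherwise.

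The members and gene lists were chosen with earlier results of these data known. Named are all members, up to 4 genes of each list with the smallest p or called, and for Slc16a1, Hk2 and Slc2a1 the 3 most alike genes; some genes that this rule or the marker lists name are not reported here. Overlap of groups was judged on TMM-scaled CPM.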

Additional observations from a re-analysis of the deposited data

How the results depend on the processing

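Over the alternatives run, Slc16a1, Hk2 and Slc2a1 kept their direction in 15 of 15 and Pfkfb2 in 14 of 14, and they passed in 4, 4, 2 and 2. The number of members called was 4 with DESeq2, 2 without a filter and 0 to 4 when single libraries were left out. The number of genes called, 7 in the report, was 393 with DESeq2 (189 higher), 29 with library totals alone (3 higher, 26 lower), 42 scaled to rod genes (0 higher), 205 without a filter, 12 at equal depth and 4 to 525 when a library was left out: 4 without control replicate 1, 5 without control replicate 2, 525 without shBCOR replicate 1 and 491 without shBCOR replicate 2. The cause was not tested. In a fit with a library left out, the lone library of its group is assumed to vary like the other group. The passes and calls of such fits, counted above, therefore hold no spread within the group left with 1 library. It was 30 with genes of 1 record only, a setting chosen after seeing the data, as was upper-quartile scaling (7). The member median was 0.34 with library totals, 0.16 scaled to rod genes and 0.30 to 0.55 with a library left out. With the replicate block 23 genes and 0 members were called, Slc16a1 had 0.61 (adjusted p = 0.128, edgeR) and Ldha turned to 0.60. Same-numbered libraries did not deviate together (correlation −0.01 across genes). With 2 libraries in each group this cannot show whether same-numbered libraries were handled together. Further reversals were Hk1 (0.29) and Ldha (2.88) without control replicate 1 and Aldoa (−0.88) without shBCOR replicate 1, each under 200 counts per library; with a library left out these 3 ranged from −0.71 to 0.29 (Hk1), −1.44 to 2.88 (Ldha) and −0.88 to 1.24 (Aldoa). The SEs of Hk1, Aldoa and Ldha were 0.53, 0.71 and 1.28, which leaves differences of the size of Hk2 undetectable, and the cause was not tested.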

Other observations

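Genes outside the direct route from glucose to lactate were read from the same fit, and none of them passed the adjusted threshold (edgeR). Of 33 regulators of glycolysis 16 were tested, 13 with a positive log2 fold change and 8 with both shBCOR libraries above both controls, and their median was 0.25. At an unadjusted p under 0.05 there were 4, all higher (edgeR), and DESeq2 called 3, Prkab1 and Igf1r among them. Prkab1, a regulatory subunit of the energy sensor AMPK, had 109 and 125 TMM-scaled CPM in the controls against 189 and 193 with shBCOR (0.70 ± 0.19, adjusted p = 0.262, edgeR). Igf1r, a receptor for insulin-like growth factor, had 503 and 481 against 613 and 750 (0.47 ± 0.14, adjusted p = 0.325, edgeR).

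In the tricarboxylic acid cycle 16 of 21 genes were tested, with a median of 0.14, 1 higher and 1 lower at an unadjusted p under 0.05 (edgeR), and none called by DESeq2. Fh1, the fumarase, had 50.01 and 58.2 CPM in the controls against 81.0 and 83.9 with shBCOR (0.61 ± 0.26, adjusted p = 0.544, edgeR), and Ogdhl had 0.38 (adjusted p = 0.534), while Idh3b had 29.5 and 32.9 against 14.7 and 13.98 (−1.12 ± 0.44, adjusted p = 0.491, edgeR). Medians were 0.04 over 7 genes of NADH shuttles and high-energy phosphate, 0.06 over 5 of the pentose phosphate pathway and 0.07 over 9 of glycogen and gluconeogenesis, with none at an unadjusted p under 0.05 (edgeR) or called by DESeq2. Of serine synthesis 1 gene, Psph, was tested, at −0.63 (adjusted p = 0.704, edgeR).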
